A study of Mus musculus with 6 samples.

Results

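The genes described here are the G protein-coupled receptors and the Rgs regulators of mLPS1, mouse cells that the labels give as dedifferentiated liposarcoma, a tumour of the fat lineage. They were taken by symbol (families such as Gpr, Gprc, Adgr, Adora, Adra, Adrb, Ptger, S1pr, Lpar, P2ry and Rgs), which gave 81 of the 14472 genes in the authors' deposited table. Of these, 67 are receptors or genes named like them and 14 are Rgs genes. The pattern also takes Agtrap, which encodes a binding protein of an angiotensin receptor and not a receptor.

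The 6 libraries of this line fall into 2 groups, 3 labelled NICD Knockout (p numbers 34, 36 and 39 in the titles) and 3 labelled wild type (35, 37 and 40). NICD is the intracellular domain of Notch, which enters the nucleus and, bound to the DNA-binding protein Rbpj, switches on genes. The genotype label reads knockout, but the title of the series names Notch over-expression, and the sources used here do not say what, if anything, was introduced into the wild type cells. Separate cultures are not mentioned in the labels, so p-values here reflect the spread among 3 libraries a group, and that spread may be technical. The measurement is the authors' deposited table of 1 comparison, with a mean normalised count, the log2 fold change (log2 change) and its standard error (SE) per gene. Single libraries are not analysed here and their depth is unknown, so each gene has a fitted level per group in place of a value per library.

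As a check of the labels, Notch1 had a fitted level of 2234 normalised counts in the knockout and 7665 in wild type in the authors' deposited table. Nrarp, a direct Notch target, had 126.6 in the knockout and 10040.1 in wild type (log2 change -6.31, SE 0.18). The labelled cell type was set against markers. Of 8 listed mesenchymal markers 7 were tested, and all 7 had levels above the floor of 1 normalised count, a low bar. Vim had 66646 in the knockout and 98030.2 in wild type. Of the 7, 3 rose and 4 fell in the authors' deposited table, among them Pdgfra at a log2 change of 2.36 and Col3a1 at -3.25. Col1a2 had a mean of 26.5, against 19458 for Col1a1. Of 8 listed adipocyte markers 5 were tested, without Adipoq, Lep and Plin1. Of these 5, 2 rose and 1 fell in the authors' deposited table. The lipid carrier gene Fabp4 had 307 in the knockout and 4.37 in wild type, Plin4 had 166 in the knockout and 7.89 in wild type, and Lpl had 414 in the knockout and 2229 in wild type. The adipocyte regulators Pparg (4.39 in the knockout and 14.4 in wild type) and Cebpa (38.9 in the knockout and 29.4 in wild type) did not pass. Markers of the contractile cells around vessels (pericytes and smooth muscle) moved with the groups: 10 of 11 fell in the authors' deposited table, and their fitted levels summed to 11529 in the knockout and 151791 in wild type. Of 5 tested macrophage markers 3 rose, with Cd68 making up most of a summed level of 2436 in the knockout and 292 in wild type, and the defining leukocyte gene Ptprc had 13.7 in the knockout and 3.74 in wild type. Of 7 listed endothelial markers 6 were tested, and 2 of them fell in the authors' deposited table, while Cdh5 and Pecam1 did not pass. Of 5 listed epithelial markers only 2 were tested, Krt8 and Cldn4, and both rose from low levels in that table. Epcam, Cdh1 and Krt18 were not among the tested genes. In bulk RNA, fewer cells of a type and less RNA per cell cannot be told apart, and the part of these markers in the results below was not tested.

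G protein-coupled receptors sit in the cell membrane and, when a ligand binds, make a heterotrimeric G protein exchange GDP for GTP. The alpha subunit then acts on its effectors: Gs raises cyclic AMP, Gi lowers it, Gq releases calcium through phospholipase C beta, and the G12 family acts on the cytoskeleton through guanine nucleotide exchange factors. Rgs proteins speed up GTP hydrolysis by the alpha subunit and so end the signal. In fat, adrenergic receptors coupled to Gs drive the breakdown of stored lipid. In vessel walls, endothelin and sphingosine 1-phosphate receptors set contraction, and Rgs5 is a known marker of pericytes.

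By the authors' deposited table, 30 of the 81 genes fell and 18 rose in the knockout at an adjusted p under 0.05, and 33 did not pass, so that 59.3% passed. Over all 14470 genes with an adjusted p in that table, 25.1% fell and 25.4% rose, 50.5% in either direction. The steepest falls were the bile acid receptor gene Gpbar1, the regulator gene Rgs5, the adhesion receptor gene Adgrd1 and the endothelin receptor gene Ednra. The steepest rises with a mean of at least 50 were the lysophosphatidic acid receptor gene Lpar1, the adhesion receptor gene Adgrg6 and P2ry14, a receptor gene for UDP-sugars. Among the 67 receptors and genes named like them 23 fell and 16 rose, with Agtrap among the 16. Among the 14 Rgs genes 7 fell and 2 rose per the authors' deposited table.

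A change of at least 8-fold past the threshold was reached by 16 of the 81 genes (19.8%), 10 lower and 6 higher, against 8.38% of all genes per the authors' deposited table. No floor was applied to either share. Of the 16, 5 (Adgrb1, Adgrg4, Adgrg7, F2rl1 and Gpr149) had 1 group fitted below 1 normalised count. With that group set at 1, Adgrg4 changed only 6.90-fold, and the others 8.16-fold or more. Among genes with a mean of at least 100, where the estimates are most precise, 31 of 45 receptor and Rgs genes (68.9%) passed, against 54.6% of all 10479 such genes per the authors' deposited table. For the 81 genes the log2 fold changes had a median of -0.21, and for all genes one of 0.02. The means ranged from 1.94 to 10118, with 66 genes at 10 or more and 15 below 10. The SE had a median of 0.19 among those whose mean was 100 or more and of 1.25 among those below 10 per the authors' deposited table, so a low gene had to change far more to pass. Of the 15 low genes, 5 passed.

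**Figure D1:**
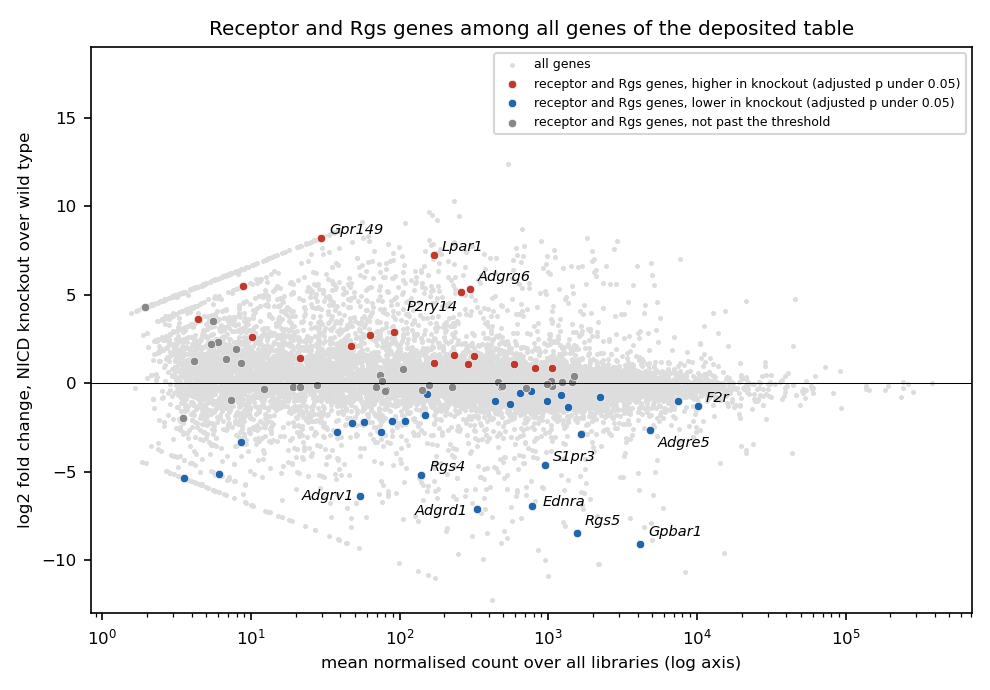
Each gene's log2 fold change in the knockout over wild type (vertical) is plotted against its mean normalised count over all libraries (log axis), with the receptor and Rgs genes coloured over all genes in grey. Gpbar1, Rgs5 and Ednra lie far below 0 at means of 4137, 1551 and 782, while Lpar1, Adgrg6 and P2ry14 lie above 5 at means of 170, 296 and 258.

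Because NICD acts through Rbpj, promoters of the genes were searched for the core sequence that Rbpj recognises, TGGGAA, on both strands. The windows are RefSeq's on GRCm38.p6, running over 300 bases from 250 before to 50 after the annotated start, and 61 of the 81 genes had one. The promoters of a pair of steep falls that hold a match, of a steep fall without one and of the steepest rise with a mean of at least 50 are shown, with the match in capitals.
Gpbar1 (chr1:74278350-74278649, plus strand): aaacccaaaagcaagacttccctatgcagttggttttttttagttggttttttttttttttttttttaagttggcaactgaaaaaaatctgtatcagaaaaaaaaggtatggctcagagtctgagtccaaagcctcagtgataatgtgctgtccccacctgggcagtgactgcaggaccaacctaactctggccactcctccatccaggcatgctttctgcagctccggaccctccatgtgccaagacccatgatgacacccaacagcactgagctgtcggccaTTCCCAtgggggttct
S1pr3 (chr13:51408368-51408667, plus strand): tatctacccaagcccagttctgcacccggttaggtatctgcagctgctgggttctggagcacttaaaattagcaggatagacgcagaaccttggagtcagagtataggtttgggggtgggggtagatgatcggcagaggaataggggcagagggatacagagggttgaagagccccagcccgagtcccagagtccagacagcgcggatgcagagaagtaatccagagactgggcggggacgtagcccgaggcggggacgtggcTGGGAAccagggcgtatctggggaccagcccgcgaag
Rgs5 (chr1:169655251-169655550, plus strand): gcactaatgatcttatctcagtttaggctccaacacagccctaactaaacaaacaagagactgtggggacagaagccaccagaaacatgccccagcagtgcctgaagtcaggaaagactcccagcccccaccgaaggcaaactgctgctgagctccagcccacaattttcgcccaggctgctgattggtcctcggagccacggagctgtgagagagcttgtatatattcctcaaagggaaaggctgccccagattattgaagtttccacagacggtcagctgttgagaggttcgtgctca
Lpar1 (chr4:58553442-58553741, minus strand): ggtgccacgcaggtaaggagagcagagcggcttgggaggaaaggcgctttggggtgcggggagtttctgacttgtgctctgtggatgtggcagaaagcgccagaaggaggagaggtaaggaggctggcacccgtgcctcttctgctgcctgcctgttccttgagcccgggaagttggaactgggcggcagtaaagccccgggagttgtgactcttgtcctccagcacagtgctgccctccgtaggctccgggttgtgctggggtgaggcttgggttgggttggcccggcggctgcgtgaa

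The match in S1pr3 reads TGGGAA on the strand of the gene and begins at base 14 after the start, counted from 1. That in Gpbar1 reads TTCCCA, so the core lies on the opposite strand, and it begins at base 35. Rgs5 and Lpar1 have no match in these windows. Over the genes, 5 of the 20 promoters of genes that fell (25%), 3 of 14 of genes that rose (21.4%) and 5 of 27 of genes that did not pass (18.5%) held the core. The share over all 27025 promoters of the same length was 25.5%. It was 23.7% over the promoters of all tested genes. The palindromic E-box CACGTG occurred in 4 of the 61 promoters (6.56%) against 7.24% of all, and the cyclic AMP response element TGACGTCA in 1 (1.64%) against 1.88%. The core of the interferon-stimulated response element was found in 1 (1.64%) against 3.49%. A match is a string of letters and does not show binding.

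Of the receptors for peptides, proteases and bile acids, all 4 tested genes fell, against 25.1% of all genes. Gpbar1, whose product couples bile acids to Gs, had a fitted level of 15.2 normalised counts in the knockout and 8259 in wild type per the authors' deposited table. That is a fall of 544-fold (log2 change -9.09, SE 0.25, adjusted p = 2.95e-297), the smallest p of the 81 genes. Ednra, the receptor for endothelin 1 on contractile cells, had 12.8 in the knockout and 1551 in wild type per the authors' deposited table (log2 change -6.93, SE 0.26, adjusted p = 5.09e-148). F2r, the thrombin receptor, fell 2.46-fold to 5855 in the knockout, against 14382 in wild type (adjusted p = 4.56e-29 per the authors' deposited table). F2rl1, its neighbour on chromosome 13 and a receptor for trypsin-like proteases, was fitted at 0.33 in the knockout and 11.8 in wild type. With the knockout set at a floor of 1 normalised count per library, F2rl1 was lower by 11.8-fold (adjusted p = 0.00253 per the authors' deposited table). The other 3 genes of the class were at 15.2 or lower in the knockout, and F2r was not.

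Genes that supply endothelin moved in both directions. Edn1, the precursor gene of endothelin 1, had 37.5 in the knockout and 91.0 in wild type per the authors' deposited table (log2 change -1.28, SE 0.31). Ece1, the enzyme that activates endothelins, fell 2.61-fold, while the related Ece2, a low gene, rose 4.37-fold per the authors' deposited table. Agtrap, which binds the angiotensin type 1 receptor and promotes its internalisation, rose 2.16-fold to 806 in the knockout, against 374 in wild type (adjusted p = 3.49e-10 per the authors' deposited table).

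Receptors for lysophospholipids moved in both directions, with 3 of 7 lower and 2 higher, against 25.1% and 25.4% of all genes. S1pr3, a sphingosine 1-phosphate receptor of vascular muscle, had 75.1 in the knockout and 1825 in wild type per the authors' deposited table (log2 change -4.60, SE 0.22, adjusted p = 1.41e-94). S1pr1, which couples to Gi, fell 7.16-fold to 407 in the knockout, against 2914 in wild type (log2 change -2.84, SE 0.14 per the authors' deposited table). Genes around S1pr1 on chromosome 3 moved the other way, with a median of 0.53. S1pr2 had 634 in the knockout and 777 in wild type and did not pass (log2 change -0.29, interval -0.58 to -0.01, adjusted p = 0.0811 per the authors' deposited table).

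Lpar1, the widely expressed lysophosphatidic acid receptor of fibroblasts, had 337 in the knockout and 2.21 in wild type per the authors' deposited table (log2 change 7.25, SE 1.19, adjusted p = 6.97e-09). Its SE is the largest of the 24 steepest changes named by rule, and the interval runs from 4.93 to 9.58. Lpar2 rose 2.70-fold from a low level in that table, with 31.0 in the knockout and 11.5 in wild type. Lpar4 went the other way, with 19.5 in the knockout and 131 in wild type (log2 change -2.75, SE 0.38, adjusted p = 7.79e-12 per the authors' deposited table). Lpar6 did not pass, at a log2 change of -0.12 (interval -0.54 to 0.30 per the authors' deposited table). The receptors of 1 ligand therefore split, with Lpar1 near the floor in wild type and Lpar4 lower in the knockout.

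The enzyme that makes lysophosphatidic acid outside cells, autotaxin, is encoded by Enpp2, and it rose 84.6-fold to 4117 in the knockout, against 48.6 in wild type (log2 change 6.40, SE 0.28, adjusted p = 3.19e-112 per the authors' deposited table). Plpp3, a membrane phosphatase that degrades lysophosphatidic acid and sphingosine 1-phosphate, fell 4.65-fold per the authors' deposited table. Spns2, the exporter of sphingosine 1-phosphate, rose 10.5-fold to 294 in the knockout, against 28.1 in wild type in that table. Lpar1 and Enpp2 thus rose together, and S1pr1 and S1pr3 fell while the exporter of their ligand rose.

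Among the receptors for purines 2 of 5 fell and 1 rose, against 25.1% and 25.4% of all genes. P2ry14 had 501 in the knockout and 14.1 in wild type per the authors' deposited table (log2 change 5.15, SE 0.31, adjusted p = 1.02e-58). Adora2a, an adenosine receptor coupled to Gs, fell 4.37-fold to 40.5 in the knockout, against 177 in wild type per the authors' deposited table. P2ry2, a receptor for ATP and UTP coupled to Gq, fell 2.26-fold to 338 in the knockout, against 763 in wild type in that table. P2ry6, the next gene to P2ry2 on chromosome 7, did not pass at a log2 change of -0.23 (interval -1.33 to 0.86), nor did Adora2b at -0.33 (interval -1.58 to 0.92) per the authors' deposited table. Their intervals hold falls of more than 2-fold but no rise of that size, at means of 12.2 for Adora2b and 21.5 for P2ry6. Of the enzymes on purines, Ada, which breaks down adenosine, fell 2.22-fold and Nt5e, which makes it, fell 3.26-fold per the authors' deposited table.

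Of the adrenergic receptors, Adra1b, coupled to Gq, rose 2.12-fold to 393 in the knockout, against 185 in wild type per the authors' deposited table. Adrb3, the receptor of mature fat cells, had 9.89 in the knockout and 3.77 in wild type and did not pass (interval -0.40 to 3.18 per the authors' deposited table). Adra2a, coupled to Gi, did not pass at a log2 change of -0.11 (interval -1.06 to 0.85 in that table).

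Prostanoid receptors had 2 of 3 genes lower, against 25.1% of all genes. Ptgir, the prostacyclin receptor, fell 1.58-fold to 947 in the knockout, against 1497 in wild type (adjusted p = 2.12e-06 per the authors' deposited table). Ptger1, a prostaglandin E2 receptor coupled to Gq, had 33.1 in the knockout and 144 in wild type per the authors' deposited table (log2 change -2.12, SE 0.37). In the annotation 71.0% of the exon bases of Ptger1 lie in exons on the opposite strand, and no source used here states whether counting used strand, so the value of Ptger1 is uncertain. Ptger4, coupled to Gs, did not pass at a log2 change of -0.19 (interval -0.80 to 0.41 per the authors' deposited table). Upstream of these receptors, Ptgs1, which encodes cyclooxygenase 1, rose 7.14-fold to 1080 in the knockout, against 151 in wild type (adjusted p = 2.32e-34 per the authors' deposited table), and Ptgis, the prostacyclin synthase gene, rose 1.68-fold. The prostaglandin E synthase genes Ptges, Ptges2 and Ptges3 did not pass in that table (log2 changes 0.17, 0.10 and 0.15).

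**Figure D2:**
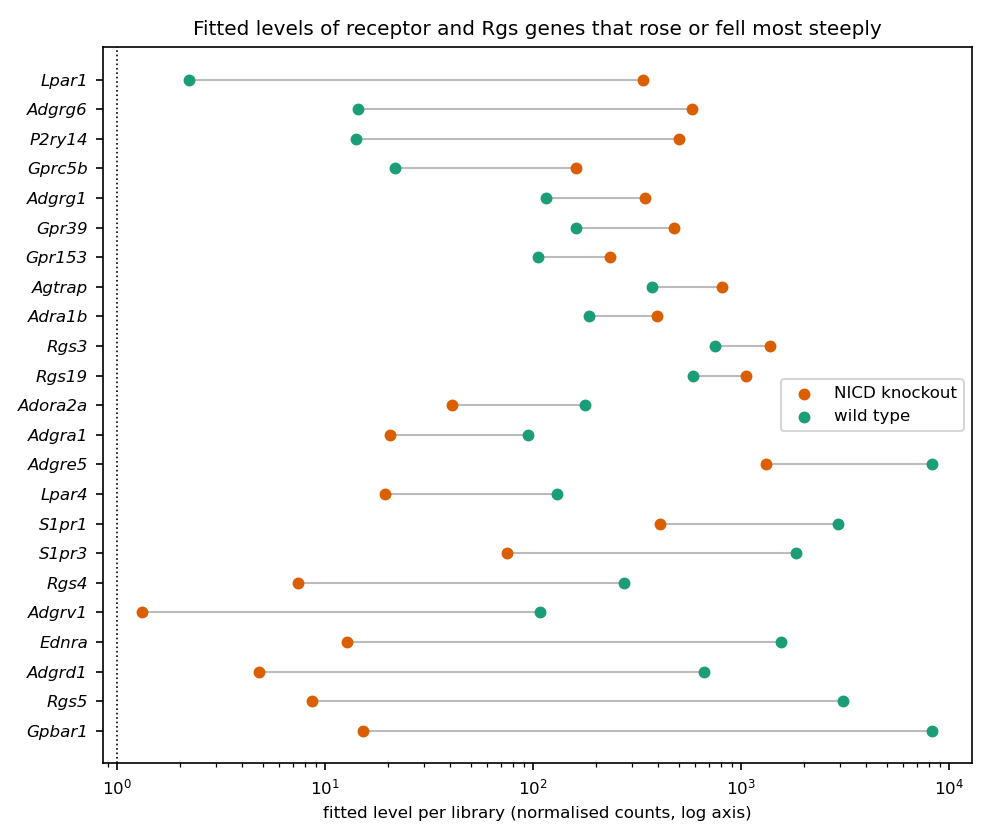
Fitted levels per library (normalised counts, log axis) in NICD knockout (orange) and wild type (green) are shown for 11 of the 12 steepest rises and the 12 steepest falls past the threshold with a mean of at least 50. The dotted line marks the floor of 1 normalised count. Gpbar1, Rgs5, Adgrd1, Ednra, Adgrv1 and Rgs4 sit at 15.2 or lower in the knockout, and Lpar1 sits at 2.21 in wild type.

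The receptors with a well-known main G protein were also grouped by it, a grouping made after the values were seen. Of 8 genes coupled to Gq, 5 fell and 2 rose per the authors' deposited table. Of 8 coupled to Gs, 3 fell and 1 rose, and of 3 coupled to Gi, 1 fell and 1 rose in that table. Falls and rises occurred in each group, and over all genes 25.1% fell and 25.4% rose.

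Adhesion receptors, which carry a long extracellular region and bind matrix or other cells, had 8 of 17 genes lower and 4 higher. That is 47.1% lower and 23.5% higher, against 25.1% and 25.4% of all genes. Of the 12 adhesion genes past the threshold, 3 have means below 10. Adgrd1 had 4.81 in the knockout and 661 in wild type per the authors' deposited table (log2 change -7.10, SE 0.44, adjusted p = 1.60e-56). Adgrv1, best known from the hair cells of the inner ear, had 1.32 in the knockout and 107 in wild type per the authors' deposited table (log2 change -6.35, SE 0.60). Adgre5, which encodes CD97 and binds CD55, fell 6.32-fold to 1315 in the knockout, against 8309 in wild type (log2 change -2.66, SE 0.10, adjusted p = 1.19e-153 per the authors' deposited table). Adgrl1, the next gene to Adgre5 on chromosome 8, did not pass at a log2 change of -0.22 (interval -0.83 to 0.39 in that table).

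All 3 genes of the Adgra group fell. Adgra2, a partner of Reck in Wnt7 signalling in brain vessels, had a log2 change of -1.0 (SE 0.16) per the authors' deposited table. Adgra3 had -0.99 (SE 0.15) and Adgra1 had -2.20 (SE 0.46). Adgrf5, known for control of lung surfactant, fell 2.02-fold to 4975 in the knockout, against 10028 in wild type per the authors' deposited table, and the genes around it on chromosome 17 had a median of 0.46. Of the genes Adgrl1, Adgrl2, Adgrl3 and Adgrl4, 0 of 4 passed the DESeq2 test, and 0 had an unadjusted p under 0.05. Adgrl1 has a mean of 478, but Adgrl2, Adgrl3 and Adgrl4 have means of only 7.93, 4.16 and 7.37. Their intervals are wide (-0.04 to 3.93, -1.05 to 3.56 and -2.57 to 0.72), so large changes of these 3 are not excluded.

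The Adgrg group held most of the rises. Adgrg6, which is needed for myelination by Schwann cells, had 577 in the knockout and 14.4 in wild type per the authors' deposited table (log2 change 5.32, SE 0.37, adjusted p = 1.91e-46). Adgrg1, a receptor for collagen III, rose 3.0-fold to 346 in the knockout, against 116 in wild type in that table. Adgrg7 and Adgrg4 have means below 10. With the group below 1 normalised count set at the floor, Adgrg7 was 17.3-fold higher and Adgrg4 was 6.90-fold lower (adjusted p = 3.33e-04 and 0.00558 per the authors' deposited table). Adgrb1, the only other adhesion gene that rose, had 8.16 in the knockout and 0.66 in wild type, and the median of the genes around it on chromosome 15 was 0.74.

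**Figure D3:**
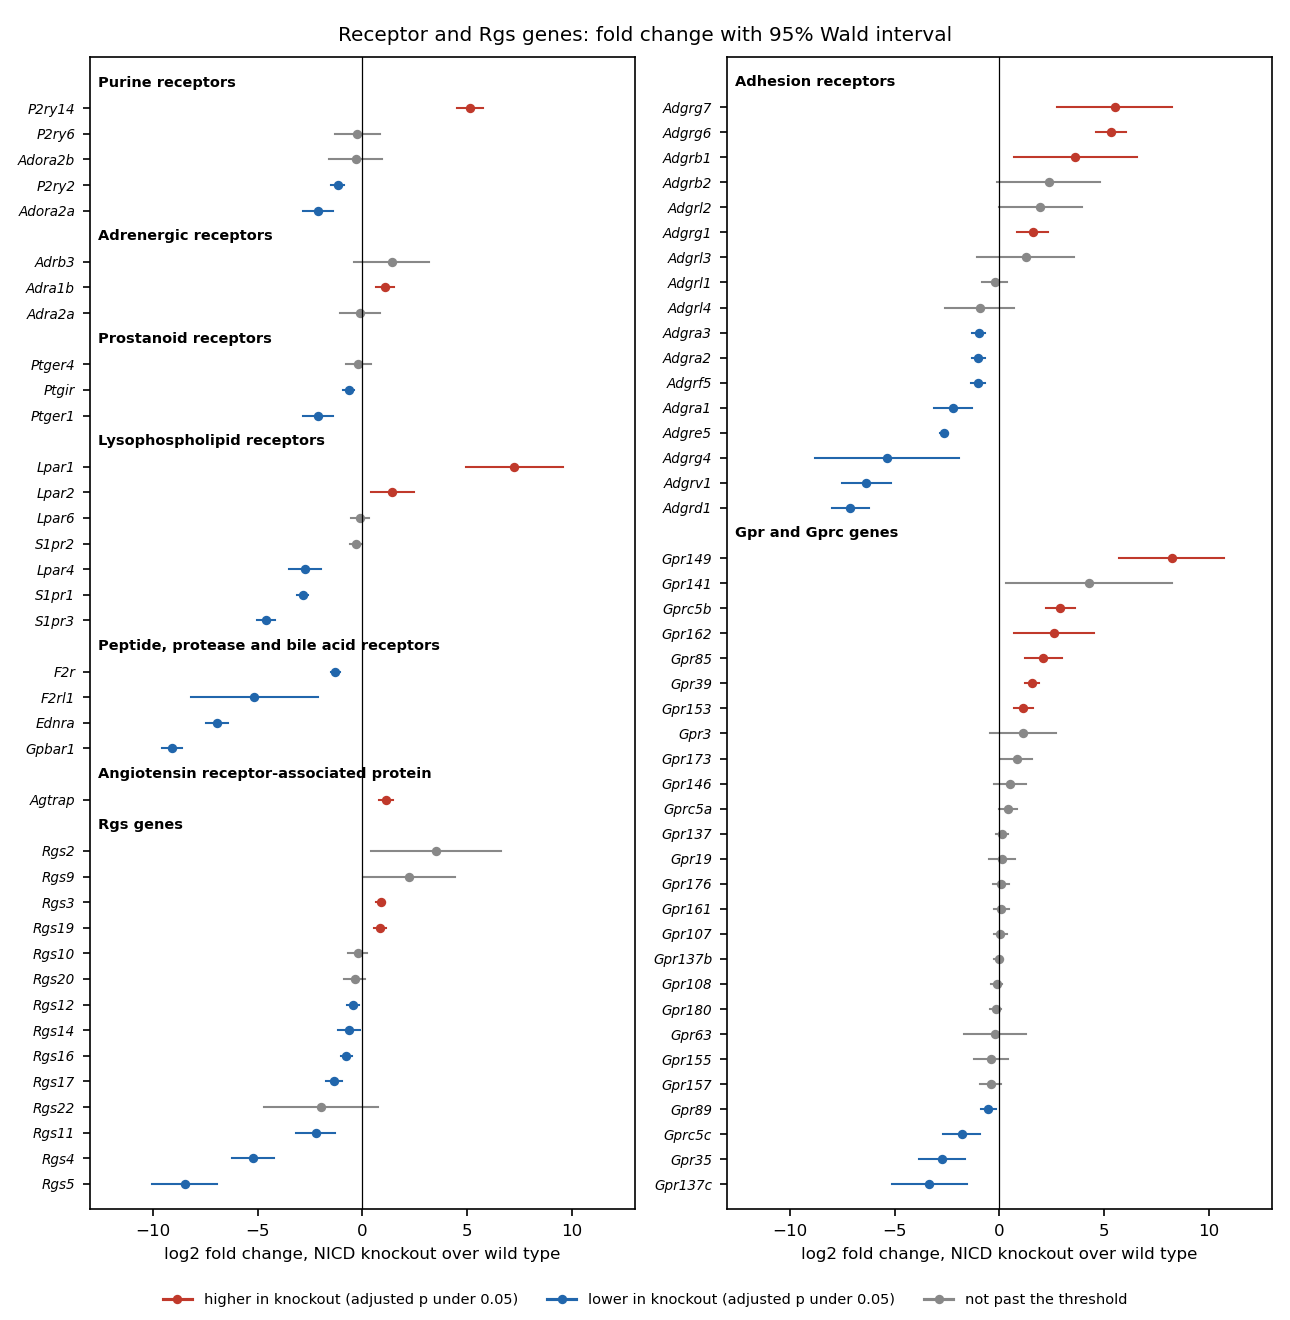
Log2 fold changes in the knockout over wild type (horizontal, points) with 95% Wald intervals (bars) are shown for 80 of the 81 genes by class, with falls in blue, rises in red and genes not past the threshold in grey. All 4 genes for peptides, proteases and bile acids lie left of 0 and were called lower, the adhesion, lysophospholipid, purine, Gpr and Rgs genes hold calls on both sides, and 7 Gpr genes lie within 0.5 of 0 with their whole interval.

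The 26 Gpr and Gprc genes, most of them orphan receptors with no settled ligand, had 6 higher and 4 lower, so 38.5% passed, against 50.5% of all genes. Gpr39, a receptor activated by zinc, rose 2.96-fold to 475 in the knockout, against 161 in wild type (log2 change 1.56, SE 0.18, adjusted p = 2.25e-17 per the authors' deposited table). In the annotation 39.9% of the exon bases of Gpr39 are shared with Lypd1 on the opposite strand, so its value is uncertain in the same way as that of Ptger1. Gprc5b, an orphan of the retinoic acid-inducible group, had 161 in the knockout and 21.7 in wild type per the authors' deposited table, and its relative Gprc5c had 66.2 in the knockout and 231 in wild type (log2 changes 2.89 and -1.80, SE 0.35 and 0.45). Gpr153 rose 2.21-fold, and Gpr85 and Gpr162 rose from levels of 17.9 and 2.88 in wild type in that table. Gpr149 was fitted at 58.8 in the knockout and below 1 in wild type, and with wild type at the floor it was 58.8-fold higher (adjusted p = 9.49e-10 per the authors' deposited table). Gpr35 fell 6.70-fold and Gpr137c fell 10.1-fold in that table, from levels of 66.5 and 15.7 in wild type.

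Several genes of this class carry the name without being classical surface receptors. Gpr89, which encodes a Golgi pH regulator, fell 1.44-fold (adjusted p = 0.0148 per the authors' deposited table). Gpr107 and Gpr108, proteins of the Golgi, and the lysosomal Gpr137 and Gpr137b did not pass in that table (log2 changes 0.05, -0.13, 0.13 and -0.04). Together with Gpr161, Gpr176 and Gpr180 they are the 7 genes of the 81 that did not pass and whose 95% interval lay wholly within 0.5 of 0. The same rule took 2605 of all 14470 genes, a larger share. At a mean of at least 100 it took 7 of 45 and 2604 of 10479. Gpr161, a repressor of Hedgehog signalling in cilia, had 476 in the knockout and 447 in wild type (interval -0.27 to 0.45 per the authors' deposited table). Gpr176 and Gprc5a, which have the highest means of the class, did not pass (log2 changes 0.09 and 0.40, SE 0.19 and 0.22). The neighbours of Gpr176 and Gprc5a on chromosomes 2 and 6 had medians of -0.63 and -0.72 per the authors' deposited table, and with the neighbours subtracted both were higher, at 0.72 and 1.13 (adjusted p = 7.30e-04 and 1.04e-06 by a Wald test with the gene's own SE). That test takes the neighbour median as exact, so the spread of the neighbours is not in these p-values.

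Of the 14 Rgs genes, 7 fell (50%) and 2 rose (14.3%), against 25.1% and 25.4% of all genes. Rgs5 had 8.65 in the knockout and 3093 in wild type per the authors' deposited table (log2 change -8.48, SE 0.79, adjusted p = 2.38e-25). Rgs4, the gene next to it on chromosome 1 and of the same R4 subfamily, had 7.39 in the knockout and 273 in wild type (log2 change -5.21, SE 0.51, adjusted p = 1.34e-23 per the authors' deposited table). The median of the neighbours was -0.39 for Rgs5 and -0.24 for Rgs4. Rgs16, another R4 gene, fell 1.71-fold to 1655 in the knockout, against 2832 in wild type per the authors' deposited table. Rgs3, also of R4, went the other way, with 1372 in the knockout and 748 in wild type (log2 change 0.88, SE 0.11, adjusted p = 8.67e-15 in that table). The falls of Rgs5 and Rgs4 stand beside those of the pericyte and smooth muscle markers given above, among which Abcc9 had 3.67 in the knockout and 4390.2 in wild type and Mcam had 121 in the knockout and 8051 in wild type per the authors' deposited table.

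The RZ subfamily, which acts on Gi and Gz, held 1 fall and 1 rise in 3 genes. Rgs17 fell 2.54-fold to 767 in the knockout, against 1950.1 in wild type, and Rgs19 rose 1.80-fold to 1054 in the knockout, against 586 in wild type (adjusted p = 1.13e-11 and 6.45e-09 per the authors' deposited table). Rgs20 did not pass, at -0.37 (interval -0.89 to 0.15 in that table). Of the R12 subfamily, Rgs12 and Rgs14 fell by 0.46 and 0.63 on the log2 scale per the authors' deposited table, and Rgs10 did not pass. Rgs11, of the R7 subfamily, had 16.8 in the knockout and 78.7 in wild type in that table (log2 change -2.23, SE 0.48). Rgs2 had 10.3 in the knockout and 0.91 in wild type, just short of the threshold (adjusted p = 0.0519 per the authors' deposited table), and Rgs9 and Rgs22, with means of 5.39 and 3.48, did not pass.

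For the lists of other signalling genes below, the share to compare is the 50.5% of all genes that passed. The alpha subunits (54.5%), the adenylyl cyclases (50%) and the RhoGEFs and other regulators (50%) were near it. Downstream of the receptors, the G protein subunits were mixed. Of 11 tested alpha subunit genes 4 fell and 2 rose, and of 11 beta and gamma subunit genes 5 fell and 2 rose per the authors' deposited table (medians -0.05 and -0.32). Gnao1, a Gi family subunit, fell 5.71-fold to 378 in the knockout, against 2162 in wild type (adjusted p = 1.62e-88 per the authors' deposited table). The G12 family pair moved apart in that table, Gna12 falling 1.99-fold and Gna13 rising 1.66-fold. Gng11 had 115 in the knockout and 741 in wild type per the authors' deposited table (median of the genes around it, -0.61), and Gng12 and Gnb1 fell 1.59-fold and 1.41-fold. Gnas, which encodes Gs alpha, did not pass at a log2 change of 0.02, nor did Gnai2 at -0.24, in that table.

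Genes of cyclic nucleotide breakdown were mostly lower. Of 11 tested phosphodiesterase genes 6 fell and 1 rose, with a median log2 fold change of -2.32 per the authors' deposited table. That is 54.5% lower, against 25.1% of all genes. Pde1a fell 18.1-fold to 53.3 in the knockout, against 967 in wild type, Pde2a fell 8.0-fold and Pde1b fell 6.32-fold per the authors' deposited table. Pde3a, a phosphodiesterase of vascular muscle, had 1.88 in the knockout and 963 in wild type (log2 change -9.0, SE 0.62 in that table). Adenylyl cyclases had 1 of 4 genes lower, Adcy6 at a log2 change of -1.38, and 1 higher, Adcy7 at 1.28, per the authors' deposited table. Of 10 protein kinase A and Epac genes 6 fell and 1 rose, with Akap12, Prkar2a and Prkar2b lower by 3.44-fold, 2.28-fold and 1.80-fold in that table.

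Of 10 genes of phospholipase C beta, protein kinase C and calcium release 4 rose and 2 fell per the authors' deposited table. Plcb3 (log2 change -0.65) and Prkce (-0.99) fell and Itpr1 (0.99) rose in that table. Receptor kinases and arrestins, which switch receptors off, had 4 of 9 genes lower and 2 higher, with Grk5, Arrb1 and Arrdc3 falling by 1.06, 1.39 and 0.82 on the log2 scale per the authors' deposited table. Arrb2 moved opposite to Arrb1, with a log2 change of 0.88 (SE 0.23) at a mean of 568. RhoGEFs and other regulators had 4 of 14 lower and 3 higher, Akap13 and Gpsm1 falling 2.72-fold and 2.41-fold and Axin2 rising 6.11-fold in that table. Enzymes and carriers for the ligands had 8 of 23 higher and 6 lower per the authors' deposited table. Receptor accessory proteins had 2 of 4 higher and 1 lower: Rtp4 and Reep5 had log2 changes of 5.13 and 1.26, and Ramp3 one of -3.02, in that table.

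Genes that respond to cyclic AMP and calcium did not move one way. Of 17, 7 fell and 5 rose per the authors' deposited table (median -0.31). Nr4a2 and Crem rose 10.8-fold and 3.10-fold, while Areg fell 2.34-fold in that table. Receptors outside the symbol pattern had 14 of 46 tested genes lower and 15 higher per the authors' deposited table, 63.0% in all against 50.5% of all genes. Of the 14, 1, Npr3, is a natriuretic peptide receptor that does not couple in the same way. Htr1b, a serotonin receptor gene of vascular muscle, Sstr2, a somatostatin receptor gene, and Cmklr1, the chemerin receptor gene, fell 22.1-fold, 137-fold and 26.7-fold per the authors' deposited table. They are named as the 3 genes of this list with the smallest p. Large rises also occurred: Lgr6, Fzd3 and Rxfp1 had log2 changes of 4.22, 6.68 and 5.97 in that table, at means of 394, 55.8 and 46.0.

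**Figure D4:**
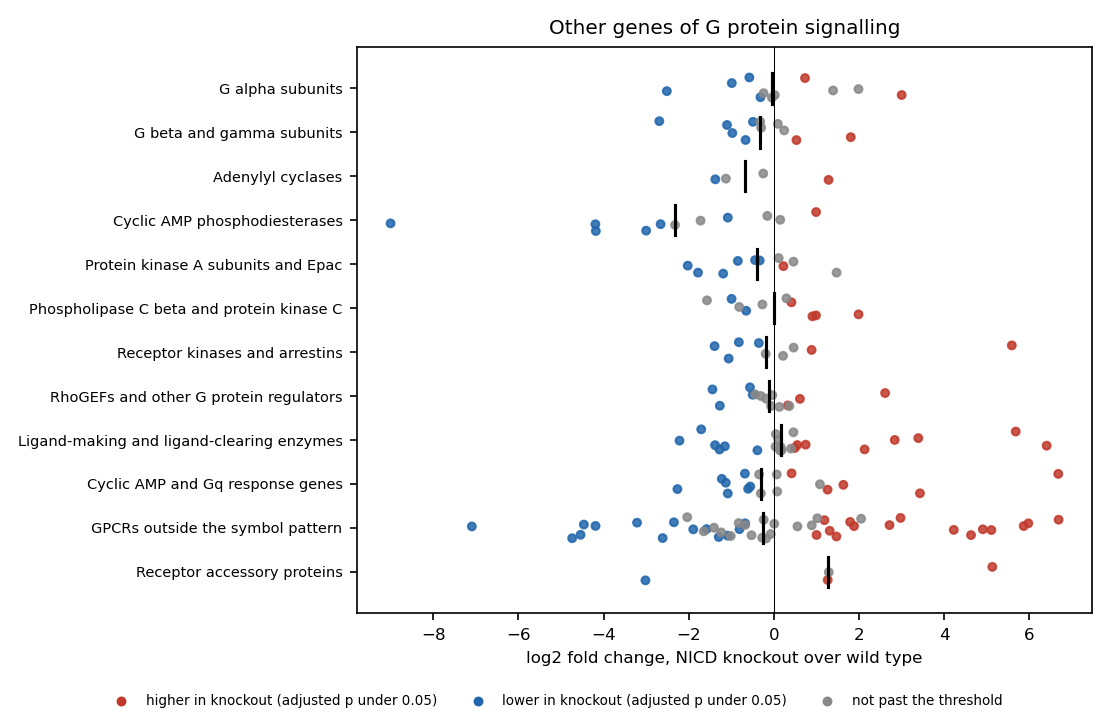
Log2 fold changes in the knockout over wild type (horizontal) are shown for each tested gene of 12 lists of G protein signalling (rows), with the list median as a black bar, falls in blue, rises in red and genes not past the threshold in grey. The cyclic AMP phosphodiesterases have the lowest median, -2.32, and the receptor accessory proteins the highest, 1.28, over only 4 genes.

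The changes of the 81 genes were also set against those of their neighbours on the chromosome. Of them, 15 had a neighbour median of at least 0.3 either way, of which 8 passed the threshold and 2 changed in the direction of their neighbours, Rgs5 and Adgrb1, per the authors' deposited table. Of the 81 genes, some lie next to each other. Rgs5 and Rgs4 both fell, as did F2rl1 and F2r, and as did Ptger1 and Adgre5, which have 1 gene between them. P2ry2 fell beside P2ry6, which did not pass and whose interval holds the value of P2ry2, and Adgre5 fell beside Adgrl1, which did not pass. Adgrl2 and Adgrl4, also adjacent, did not pass either. Whether such neighbours differ from each other was not tested.

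Beside Ptger1 and Gpr39, 8 genes share at least 10% of their exon bases with a gene on the opposite strand, so their values carry the same uncertainty. The shares were 24.9% for Adrb3, 24.8% for Gpr89, 23.8% for Adgre5 and 15.4% for Gpr137. They were 15.3% for Ptger4, 13.1% for Gprc5b, 12.9% for Adgrl1 and 10.1% for Rgs16. The gene opposite Gprc5b, Iqck, itself rose per the authors' deposited table (log2 change 3.44, adjusted p = 8.92e-10).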

How the data were processed

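The 6 libraries were made from total RNA of mLPS1 cells (TRI Reagent, per the labels' protocols). The genotype label gave each library its group. Salmon, DESeq2 and the build mm39 are named, per the submitters' processing notes, with no version or setting. Single libraries' values are not analysed here. Each gene's row, deposited by the authors, holds a mean normalised count (a signal: counts divided by size factors), the log2 fold change and the standard error of it, a Wald score, and the p-value before and after Benjamini-Hochberg adjustment, per the file headers. Of 14472 rows, 2 have no p. The direction, knockout over wild type, comes from the name of the table alone.

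A planned edgeR test on counts could not be run on such values, and calls are those of the authors' DESeq2 test at an adjusted p under 0.05. The Wald score and the adjustment, computed again from the deposited columns, differed from them by at most 1.56e-13. The level fitted in each group follows from the mean and fold change of a gene if both groups have 3 libraries. Intervals are 95% Wald intervals (1.96 standard errors). A floor of 1 normalised count in each library (3 in the whole group) replaced lower fitted levels in a second fold.

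The genes, their classes and 12 lists of other signalling genes and 6 of cell markers were chosen with earlier results of these data known. Named by rule were the 12 steepest rises and 12 steepest falls past the threshold with a mean of at least 50, the 2 highest means of each class, up to 3 genes with the smallest p in each list and any cell marker. Other genes named were chosen after their values were seen, and 1 receptor gene is counted but not reported by name. Chromosomes, gene order and exon overlaps came from GENCODE M21 (GRCm38), used for order and overlap only, and a neighbour median covers 10 protein-coding genes on each side, each with a mean no lower than 100. Promoter sequences are RefSeq's on GRCm38.p6, available for 61 of the 81 genes. Python 3.11.15, numpy 2.4.6, pandas 2.3.3, scipy 1.17.1 and matplotlib 3.10.9 were used, and the steps were tested on simulated data. The closing section gives the effect of 7 alternatives.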

Additional observations from a re-analysis of the deposited data

How the results depend on the processing

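Of the 48 receptor and Rgs genes past the threshold, 43 passed at an adjusted p under 0.01 (Adgrb1, Gpr162, Gpr89, Lpar2 and Rgs14 did not) and 39 also changed at least 2-fold. At least 2-fold left 0 Rgs genes higher, against 2 at the threshold alone, and 4 lower, against 7. With a mean of at least 10, 43 of the 66 genes tested passed, and none of those 66 lost its call. Taking the row with the lower mean could change nothing, as no symbol of the 81 lay on 2 rows. With a mean of at least 100, 10 genes were higher, against 18, where fewer genes were tested. Among receptors and genes named like them 8 were then higher, against 16, and 15 lower, against 23. Centring all genes on the median of expressed genes, a shift of -0.05, added Gpr173 and Rgs2 and lost no gene. Subtracting the neighbours' median, taken as exact, lost Adgrb1 and Rgs14 and added Gpr137b, Gpr173, Gpr176, Gpr19, Gprc5a, Rgs2 and S1pr2, and the cause was not tested. Among these alternatives only centring and subtracting the neighbours could turn a direction, and no gene past the threshold turned under either. No paired analysis was possible because no values of single libraries were used here, so leaving out a library and the test with other tools were not run either. The depth of each library is unknown, and low means limit the precision: the median standard error was 1.25 for genes with a mean below 10.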
